A study of Drosophila melanogaster with 8 samples.

Results

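The 3′ ends described here are cleavage and polyadenylation sites that carried counts in every library of head homogenate (input) and none in any library of the synaptosome fraction. An end was included where its count was 0 in all 4 synaptosome libraries and 10 or more in each of the 4 input libraries. This held for 704 of the 20177 ends in the table, and for 6.99% of the 10066 ends that met the input minimum. They belonged to 678 genes. For 404 of them (57.4%), in 388 genes, another end of the same gene kept counts in synaptosomes. The other 300 (42.6%), in 290 genes, belonged to genes that were at 0 in every synaptosome library. The counts chose the ends, so their levels in synaptosomes and input are a description and carry no test.

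RNA was taken from adult Drosophila melanogaster heads of genotype wt (w1118 in the study's methods), and libraries of polyadenylated 3′ ends were sequenced from 2 groups. The synaptosome group was a column fraction of the head homogenate, made by pooling the synaptosome layers of a Percoll density gradient. The input group was the homogenate before centrifugation. The w1118 strain is mutant for the eye pigment gene white, which both groups share, and no other allele or agent is named. Flies were 3 days old in the methods. The labels speak of snap-frozen flies and head powder prepared for RNA, whereas the methods describe heads sieved from freshly blended flies, and which holds for these libraries could not be settled. Each group had 4 libraries, numbered 1 to 3 and named old in the counts. The sample titles number each group 1 to 4 and do not use the word old. Whether sample 4 is the library named old is not said, and the 2 were not matched. The methods divide every synaptosome sample between RNA and proteomics and call the proteomics samples biological replicates. For the RNA libraries, and for those named old, it is not said whether each came from its own fly collection, so the spread between them may in part be technical.

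Most Drosophila genes can be cleaved and polyadenylated at more than 1 site, which gives mRNAs with the same protein and different 3′ UTRs, or, where the site lies in an intron, different proteins. The 3′ UTR carries binding sites for proteins that move an mRNA along the axon or hold it in the soma, and neurons are known for long 3′ UTRs. Synaptosomes are pinched-off nerve terminals with attached postsynaptic membrane, and mRNA found in them is read as mRNA near synapses.

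Synaptosome libraries held 1029666 to 9397652 counts and input libraries 7940909 to 16865581. They detected 6816 to 10479 ends in synaptosomes and 13433 to 16237 in input. Levels are given as CPM, counts divided by the library total after TMM scaling and given per 10 to the power of 6. A count of 0 allows up to 3 counts, which averaged 1.36 CPM over the synaptosome libraries. Folds are given as bounds against that averaged floor. Reads carried no molecular identifiers, so floors cover counting error only. The labelled fractions were compared with markers. Syx1A, a plasma membrane SNARE of nerve terminals, averaged 84.7 ± 62.4 CPM in the synaptosome libraries and 44.8 ± 31.0 CPM in the input libraries (SD, n = 4 each). nSyb, the vesicle SNARE, averaged 33.5 ± 29.8 CPM in synaptosomes, against 150 ± 67.9 CPM in input. Syt1, the calcium sensor of release, had 33.9 ± 32.5 CPM in synaptosomes (0 in synaptosome 3), against 125 ± 81.4 CPM in input. Csp had 35.6 ± 37.5 CPM in synaptosomes and 197 ± 110 CPM in input. brp had 32.1 ± 30.8 CPM in synaptosomes and 40.9 ± 18.5 CPM in input. Of these synaptic markers, Syx1A alone had the higher mean in synaptosomes. elav, whose protein marks neuronal nuclei, had 17.5 ± 10.5 CPM in synaptosomes and 7.39 ± 4.64 CPM in input. Photoreceptor markers differed among themselves. The mRNA of the rhodopsin ninaE averaged 499 ± 130 CPM in synaptosomes, against 10335 ± 2805 CPM in input, and that of Arr2, an arrestin, 36785 ± 32962 CPM in synaptosomes and 33028 ± 6910 CPM in input. Of the glial markers, repo had a synaptosome mean of 40.3 ± 17.8 CPM and an input mean of 35.6 ± 11.1 CPM, while alrm had 39.5 ± 24.8 CPM in synaptosomes, against 86.8 ± 14.95 CPM in input. mRNAs of vesicle, photoreceptor and glial markers were therefore present in both fractions.

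The ends seen only in input were of low to moderate abundance. Their mean input level ran from 1.24 to 76.6 CPM, with a median of 5.24 CPM, against a median of 21.1 CPM over all ends that met the input minimum. Ends whose gene kept another end had a median of 4.88 CPM and ends of genes without any synaptosome count 5.73 CPM. Together the 704 ends took 0.473% ± 0.130 of the counts of an input library (SD, n = 4), with 0.589%, 0.490% and 0.527% in input 1, 2 and 3 and 0.289% in input old. Had each been present in synaptosomes at its input level, the 4 synaptosome libraries together would have held a median of 83.0 counts of it, with a range of 19.6 to 1213. At that level 646 of the 704 would have reached 3 counts in every synaptosome library. For the remaining 58 a level as in input was within the counting limit of at least 1 library, synaptosome 2 being the shallowest. Reaching 3 counts by this reckoning did not mean that an end was detected. Of 1684 ends at 5 to 10 CPM in input, 154 had counts in all 4 synaptosome libraries. The rule also chose the 704 ends for their 0 counts, so these numbers cannot show that an end was absent.

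The share of ends without a synaptosome count was lower the higher the input level. It was 44.1% of 68 ends under 2 CPM, 32.1% of 252 ends at 2 to 3 CPM and 26.2% of 831 ends at 3 to 5 CPM. It was 14.4% at 5 to 10 CPM, 5.46% at 10 to 20 CPM and 0.775% at 20 to 50 CPM. Of 1217 ends at 50 to 100 CPM a single end, that of nur, had no synaptosome count, and of 1400 ends at 100 CPM or more there was none. Partial detection was common. Of the ends that met the input minimum, 1346 (13.4%) had counts in exactly 1 synaptosome library, and these had a median of 38 counts in that library, with quartiles of 17 and 80. In 1145 of the 1346 (85.1%) that library held 10 or more counts. Ends thus often carried many counts in 1 synaptosome library and 0 in the other 3, and only 45 ends had a single synaptosome count in all. By library, 304, 152 and 131 ends were seen in synaptosome 1, 2 or 3 alone and 759 in synaptosome old alone.

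**Figure D1:**
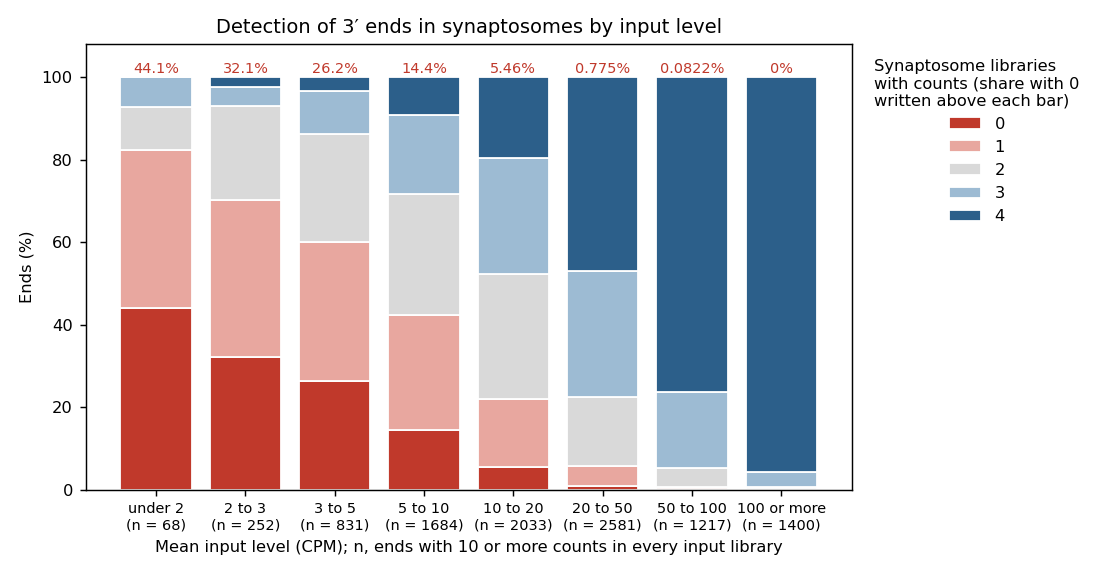
Ends with 10 or more counts in every input library, grouped by mean input level (x axis, CPM, with the number of ends in each bin), and the percentage of them with counts in 0 to 4 synaptosome libraries (y axis, stacked). The share in 0 libraries, written above each bar, is 44.1% under 2 CPM, 5.46% at 10 to 20 CPM and 0 at 100 CPM or more.

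The reverse pattern was not found. Of 3436 ends with 10 or more counts in each synaptosome library, 0 were without a count in every input library. Synaptosome counts without any input count did occur at 316 ends, none of which reached 10 in each synaptosome library. The groups differed in depth, so this asymmetry of counts was not compared further.

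Ends of genes without any synaptosome count are described first. In 186 of the 300, the end was the gene's single end in the table, and the other 114 belonged to genes with 2 or more ends, all of them at 0 in synaptosomes. The highest was the end of nur, a gene on the list of fat body and haemolymph genes (2L:13736138-13737030, plus strand). It had 0 counts in every synaptosome library, against 337, 1962, 217 and 347 counts in input 1, 2, 3 and old. Input 2 held most of them, so its mean of 76.6 ± 97.8 CPM (SD, n = 4) rests on that library.

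Behind nur, CG5500 and CG6729 stood IntS4 and Srrm1. IntS4 belongs to Integrator, the complex that cleaves small nuclear RNA precursors, and lies on X:8555239-8558781. Its end had 0 counts in all 4 synaptosome libraries and 204, 277, 326 and 619 counts in the input libraries, 32.3 ± 10.5 CPM. By counting error alone, the end was at least 23.7-fold lower in synaptosomes. Such bounds leave out differences between libraries, and the rule required the 0 counts. Srrm1, a splicing coactivator of the nuclear matrix, had 0 counts in synaptosomes against 286, 344, 331 and 248 in input, 29.6 ± 8.73 CPM. Every input library was thus well above the floor for both genes, and the spread between input libraries was smaller than the level itself.

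nAChRalpha2, a subunit of nicotinic acetylcholine receptors, lies on 3R:24485428-24491147. Its end had 0 counts in synaptosomes and 154, 208, 372 and 473 counts in input, 27.0 ± 7.78 CPM. By counting error alone, the end was at least 19.8-fold lower in synaptosomes. It was 1 of 45 ends that could be placed on the genome, because the gene had a single known end and a single counted end. The known end, at 24491141 to 24491152 of 3R, covered the annotated gene end. dor had 0 counts in synaptosomes and 175, 146, 338 and 357 in input. The product of dor is a subunit of the complexes that tether endosomes and lysosomes and is needed for normal eye pigmentation. CG5500, CG6729, CG7747, dao and CG34404 completed the 10 highest, with means of 24.4 to 39.6 CPM in input. The lowest input count among these 5 was 92, that of CG34404 in input 2.

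**Figure D2:**
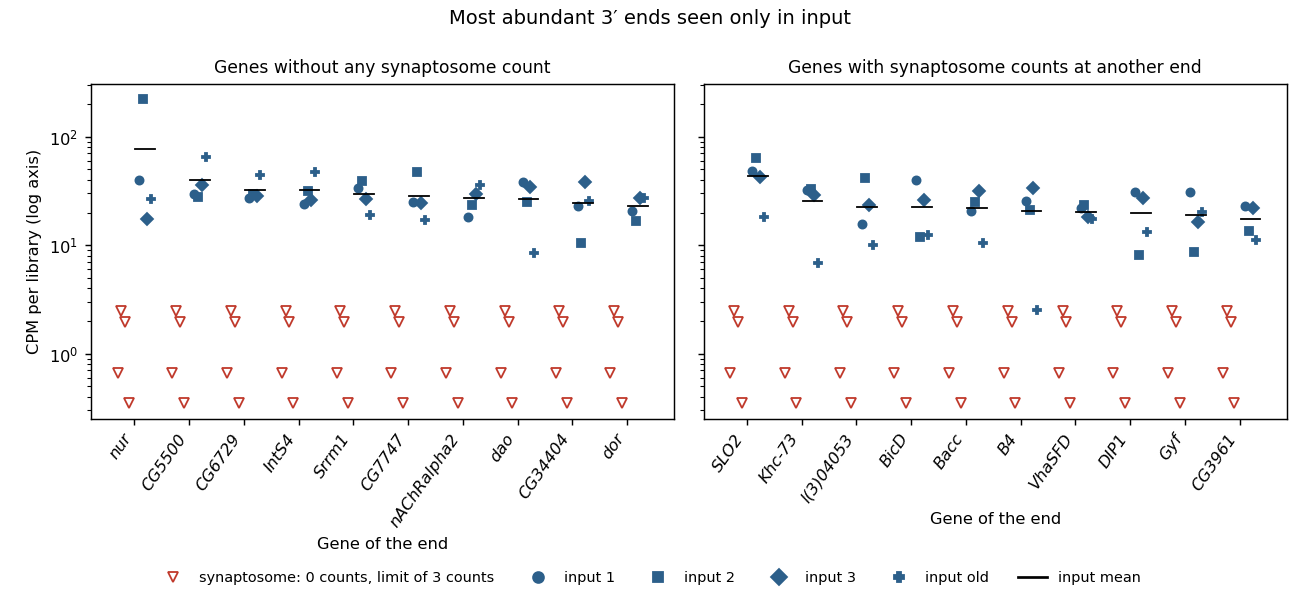
Levels of the 10 most abundant ends seen only in input, in genes without any synaptosome count (left) and in genes with synaptosome counts at another end (right); y axis, CPM on a log scale. Open triangles give the limit that 0 counts allow in each synaptosome library (3 counts), filled symbols the 4 input libraries and bars their mean, and the input values lie above the triangles of all 4 libraries at these ends, with that of B4 in input old, 2.52 CPM, next to the highest limit of 2.46 CPM.

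Ends of genes that keep another end had no synaptosome count while the gene itself had some. SLO2, a sodium-activated potassium channel (2R:10322195-10416996, minus strand), had the highest. Its end 3 had 0 counts in synaptosomes, against 406, 559, 525 and 240 in input. Its end 6 had 495, 124, 42 and 50 counts in synaptosome 1, 2, 3 and old, against 653, 740, 1153 and 268 in input. End 3 therefore took 0 of 711 counts of the gene in synaptosomes and 40.0% ± 6.84 of the gene's counts in input (SD, n = 4). By counting error alone, 0 of 711 allows a share of up to 0.422%, which leaves out differences between libraries. Synaptosome 1 held 495 of the 711.

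Khc-73, a kinesin-3 motor (2R:15515778-15532259), had the second by input level, with 0 counts at end 10 in synaptosomes and 274, 293, 360 and 89 in input, 74.8% ± 14.4 of the gene. Its end 2 kept 0, 6, 9 and 189 counts in synaptosomes and had 73, 66, 59 and 77 in input, so its synaptosome counts came mainly from the library named old. The third was an end of a gene known only by the name of a lethal mutation on chromosome 3, at 22.7 CPM in input. BicD, an adaptor that links mRNA cargo to dynein, had 0 counts at end 14 in synaptosomes and 338, 105, 326 and 163 in input. Its end 9 had 6, 0, 85 and 0 counts in synaptosomes, and the gene thus rested on 2 synaptosome libraries. VhaSFD, a subunit of the proton pump that acidifies vesicles, had 0 counts at end 4 in synaptosomes and 188, 208, 224 and 227 in input, an even level over the input libraries of 20.3 ± 3.08 CPM. Gyf, a translational repressor, and DIP1, a double-stranded RNA-binding protein, also had ends among the 10 highest, at 0 in synaptosomes, against 19.0 ± 9.19 CPM and 19.7 ± 10.8 CPM in input. Bacc, B4 and CG3961 made up the rest, at 17.5 to 21.9 CPM.

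The number of synaptosome counts of the gene sets how much the absence of 1 end can show. If an end had taken the same share of its gene in synaptosomes as in input, its expected count would be that share times the gene's synaptosome counts. This number was 35.7 at the median of the 404 ends, 100 or more at 48 and under 10 at 45. By counting error alone, the input share was above the limit that 0 counts allow in 399 of the 404. In 238 it was over 10 times that limit. The limit sums the libraries and leaves out differences between them. Such differences were large, since 1346 ends over the input minimum had counts in a single synaptosome library, with a median of 38 there. The rule also chose these ends for their 0 counts, so the tally cannot show that an end was absent. The expected counts rested largely on 2 libraries, as was checked after seeing the data. Without synaptosome old their median was 14.1, with 100 or more at 11 ends, and without synaptosome 1 it was 24.1, with 100 or more at 21 ends.

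Lon, the protease of the mitochondrial matrix (3L:19607857-19612199), had the largest expected count, 677. Its end 1 had 766, 327, 234 and 3544 counts in synaptosomes and 757, 1577, 831 and 1323 in input. Its end 3 had 0 counts in synaptosomes and 107, 195, 247 and 135 in input, 13.9% ± 6.15 of the gene. The limit in synaptosomes, by counting error alone and with the libraries summed, was 0.0616%. The gene was thus abundant in all 4 synaptosome libraries and end 3 in none of them. Most of the gene's counts came from synaptosome old, without which the expected count was 184, below the 264 of SLO2. The expected count of SLO2 was 284, and 86.3 without synaptosome 1.

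Several regulators followed. Nuak, a kinase related to AMPK, had 276, 16, 15 and 0 counts at end 2 in synaptosomes and 19, 35, 78 and 47 in input. Its end 11 had 0 in synaptosomes and 235, 58, 204 and 88 in input, 65.9% ± 11.5 of the gene, with an expected count of 219. Without synaptosome 1, which held most of the gene's counts, the expected count of Nuak was 36.9. mxt, a translation factor that binds the cap-binding protein, had 0 counts at end 1 in synaptosomes and 174, 66, 229 and 145 in input. End 11 of mxt kept 129, 11, 46 and 393 counts in synaptosomes and had 236, 141, 443 and 196 in input. In mxt the expected count was 218, or 70.2 without synaptosome old, and the gene was seen in every synaptosome library through end 11 alone.

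jub, a LIM protein of cell junctions that acts on the Hippo pathway, kept 311, 0, 57 and 204 counts in synaptosomes at end 2, where input had 397, 231, 403 and 313. Its end 0 had 0 counts in synaptosomes and 69, 156, 151 and 260 in input. dpr19, an immunoglobulin domain protein of neuronal surfaces, had 237, 13, 16 and 104 counts at end 2 in synaptosomes and 121, 138, 247 and 117 in input. At end 1 it had 0 in synaptosomes, against 197, 83, 236 and 104 in input, 48.9% ± 10.0 of the gene. In dpr19 both ends were used about equally in input and end 2 alone in synaptosomes. msl-1, a subunit of the dosage compensation complex of the male X, and B4 had expected counts of 178 and 216. Leaving out 1 synaptosome library gave expected counts as low as 83.4 for jub and 65.0 for dpr19, both without synaptosome 1, 53.6 for msl-1 without synaptosome old, and 111 for B4 without synaptosome 1.

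CLIP-190, a microtubule plus-end protein, shows the opposite extreme of use. Its end 13 had 6218, 2791, 3434 and 12863 counts in synaptosomes and 3826, 2910, 3992 and 4083 in input. Its end 2 was minor, with 0 counts in synaptosomes and 41, 19, 52 and 30 in input, 0.736% ± 0.223 of the gene. With 25979 counts of the gene in synaptosomes, that share would have given 191 counts at end 2, or 94.9 without synaptosome old. End 13 was higher in synaptosomes than in input, and at the input level of end 2 itself 53.3 counts would have been expected. End 2 was not the only end of CLIP-190 with a smaller share in synaptosomes. End 16 had 0, 22, 13 and 0 counts in synaptosomes, against 273, 493, 753 and 352 in input, and end 18 had 30, 0, 0 and 0 in synaptosomes, against 20, 266, 352 and 259 in input.

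**Figure D3:**
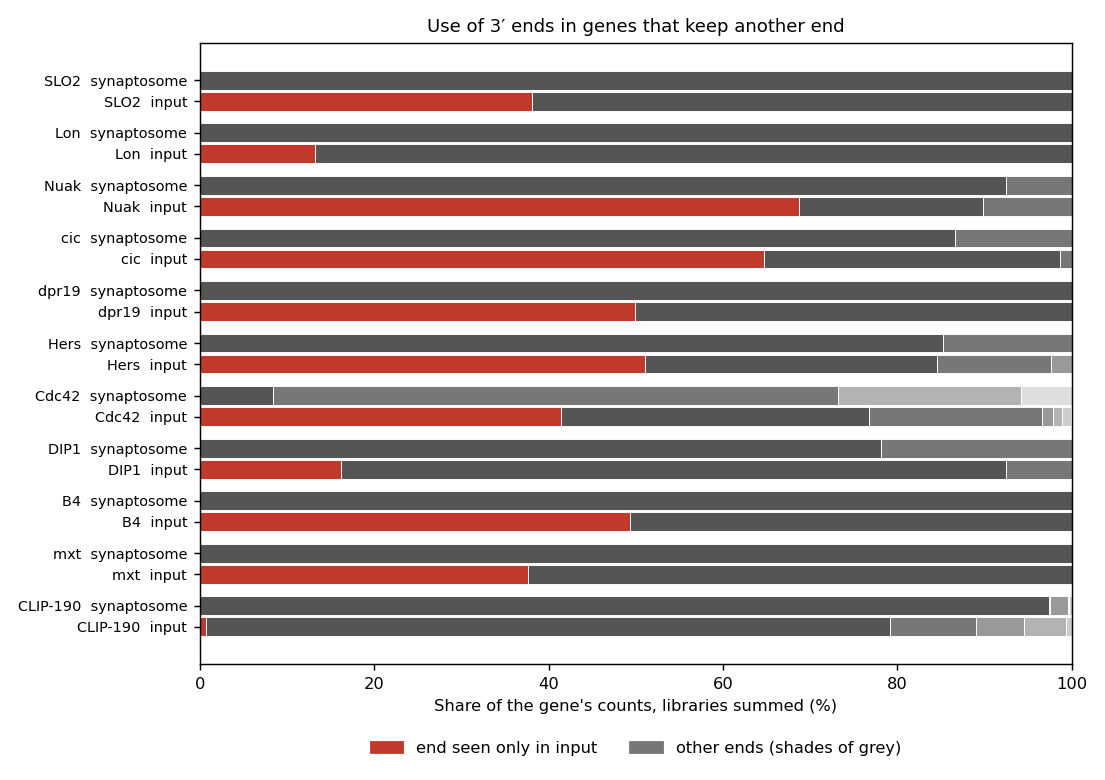
Share of each gene's counts at each of its 3′ ends, synaptosome libraries summed (upper bar of each pair) and input libraries summed (lower bar); x axis, percent. The end seen only in input (red) takes 38.1% of SLO2, 13.2% of Lon, 68.7% of Nuak and 0.752% of CLIP-190 counts in input, and the grey ends make up all counts in synaptosomes.

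Across the 404 ends the share of the gene in input was mostly small. Its median was 17.2%, with quartiles of 7.05% and 40.2%. It was under 10% at 141 ends and over 50% at 78, and the end was the most abundant of its gene in input at 82. All synaptosome counts of these genes come from their other ends, so an end with a large share leaves the gene fewer counts by the rule itself, and the order that follows is a description. Where the gene had counts in 1 synaptosome library (68 ends), the median share was 64.7%, and it was 34.8% with 2 libraries (86 ends), 15.6% with 3 (74 ends) and 7.91% with all 4 (176 ends). Only 2 ends took over 50% of a gene seen in all 4 synaptosome libraries, that of Nuak and end 15 of cic, which codes for the repressor Capicua. In cic, end 15 had 0 counts in synaptosomes and 162, 189, 264 and 84 in input, whereas end 9 kept 151, 0, 16 and 33 in synaptosomes and had 158, 94, 76 and 39 in input.

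**Figure D4:**
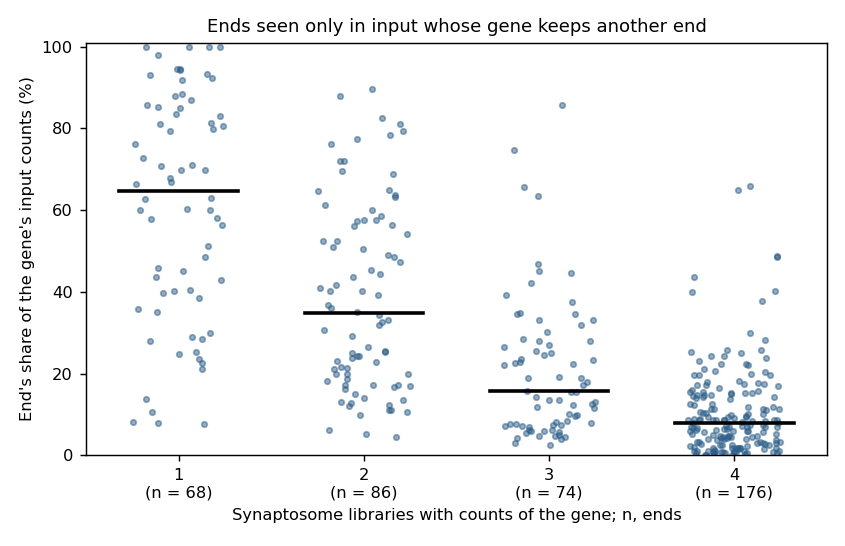
Share of the gene's input counts at each of the 404 ends whose gene kept another end (y axis, percent, mean of the 4 input libraries), by the number of synaptosome libraries with counts of the gene (x axis). Points are ends, spread sideways for legibility, and lines are medians, which are 64.7%, 34.8%, 15.6% and 7.91% for 1, 2, 3 and 4 libraries. The rule sets the ends at 0 in synaptosomes and so ties both axes.

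In 4 genes the pattern was complementary, since the ends with synaptosome counts had no input count at all. Rassf had 61 counts at end 1, all in synaptosome 1, against 0 in input, and 0 at end 5 in synaptosomes against 145, 154, 229 and 53 in input. The same held for CG14411, Ranbp21 and Mes2, whose synaptosome counts were 15, 12 and 30. In each of the 4 genes these counts came from a single synaptosome library.

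The other ends of the 388 genes numbered 1044, of which 671 had synaptosome counts and 555 passed the filter on low counts. They share the comparison that chose the genes and are described without a test of their own. Their median log2 fold change, synaptosome over input, was -0.75, beside -0.41 over the 10499 tested ends that were not chosen by the rule. Of the 555, 9 were called lower (1.62%) and 1 higher (0.180%) by edgeR's quasi-likelihood test with Benjamini-Hochberg adjusted p under 0.05. Over the 10499 the same test called 154 lower (1.47%) and 81 higher (0.772%). The single higher one was end 13 of CLIP-190, at 1858 ± 485 CPM in synaptosomes, against 354 ± 65.7 CPM in input (SD, n = 4 each). Among the 9 lower ones were end 1 of arm, the fly beta-catenin, at 83.0 ± 31.4 CPM in synaptosomes, against 263 ± 40.1 CPM in input, and end 0 of ninaC, a photoreceptor myosin, at 239 ± 159 CPM in synaptosomes and 1778 ± 245 CPM in input.

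In the same fit of all ends, 715 of 11062 tested ends were called lower in synaptosomes (6.46%) and 81 higher (0.732%). Of the 704 ends seen only in input, 563 passed the filter on low counts, and 561 of these were among the 715. The rule and the fit use the same counts, so nothing is read from this number. Their adjusted p-values lay between 0.0294 and 0.0511, close to the threshold. Leaving out any 1 library other than synaptosome old left between 0 and 2 edgeR calls among them, where 544 to 693 of them had an unadjusted p under 0.05, and leaving out synaptosome old gave 670 calls.

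Input libraries differed at these ends. Over the 704 ends the coefficient of variation of input CPM had a median of 49.7%, against 38.5% over all ends that met the minimum. Among ends of 3 to 10 CPM it was 52.2% for those seen only in input and 49.6% for the others. Part of the set stood low in the library named old. It was the lowest input library at 311 of the 704 ends and the highest at 95, and the log2 ratio of input old to the mean of input 1 to 3 had a median of -0.66, against -0.12 over all ends that met the minimum. Among ends of 3 to 10 CPM the median of this ratio was -0.64 for the 461 ends seen only in input and -0.35 for the 2054 others. The part of this library in the pattern was not tested beyond leaving it out.

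Ends at the edge of the rule differed from those beyond it by single counts. Just inside, CG11030 had 0 counts in synaptosomes and 129, 10, 92 and 40 in input, and Rad9, a checkpoint protein, 0 in synaptosomes and 10, 67, 81 and 109 in input. Just outside, Cadps, which primes dense-core vesicles for release, had 0 counts in synaptosomes and 239, 9, 239 and 58 in input, missing the minimum by 1 count in input 2. End 18 of sbb, a nuclear repressor, was left out by a single count in synaptosome 1, with 450, 441, 377 and 279 in input, and so was end 1 of Mp20, a muscle protein, with 159, 192, 493 and 355 in input. In all, 42 ends had a lowest input count of exactly 10, and 50 more had 0 in synaptosomes and a lowest input count of 9.

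The genes of these ends were compared by function with lists of genes, as the share of genes with an end over the input minimum that had an end seen only in input. Over all 7590 such genes this share was 8.93%. No list was tested, and the lists differ in how abundant their ends are. Ends over the minimum had a median of 12.5 CPM for adhesion and guidance genes, 12.4 CPM for receptors and 10.1 CPM for DNA replication genes. It was 26.9 CPM for glial and 29.9 CPM for haemocyte genes, beside 21.1 CPM over all ends. Share and level did not always go together, with 13.3 CPM for cuticle and 37.2 CPM for muscle genes.

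Genes of 3′-end formation had the highest share of the function lists, 6 of 24 (25.0%). The ends of this list that met the input minimum had a median of 9.59 CPM, under the 21.1 CPM of all ends. In 4 of the 6 the gene had no synaptosome count: IntS4, IntS9 and IntS14 of the Integrator complex and CstF64, which binds the RNA downstream of the cleavage site. CstF64 had 0 counts in synaptosomes and 37, 103, 96 and 94 in input. The other 2 genes were su(f), the fly CstF77, and Pcf11, which joins cleavage to transcription termination. The main end of su(f) had 0 counts in synaptosomes and 147, 117, 240 and 226 in input, and the gene's only synaptosome count was 1 at another end. Pcf11 had 2 such ends, with 326 and 160 counts summed over the input libraries, and kept 156 counts in synaptosomes at its other 3 ends.

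Receptors for transmitters and peptides had such an end in 6 of 50 genes (12%), and all 6 were without any synaptosome count. Besides nAChRalpha2 these were Dop1R1, a dopamine receptor, Octalpha2R, an octopamine receptor, AstC-R1 and AstC-R2, which bind allatostatin C, and MsR2, which binds myosuppressin. Dop1R1 had 0 counts in synaptosomes and 223, 49, 209 and 54 in input. AstC-R2 had 0 in synaptosomes and 27, 136, 32 and 23 in input, so its mean of 5.74 ± 6.49 CPM rested on input 2. Both fractions came from bulk head homogenate, so less material of a cell type in the synaptosome fraction and less of an mRNA within that material cannot be told apart, which applies to all differences given here.

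Adhesion and guidance genes had 13 of 83 (15.7%), and 10 of the 13 were without any synaptosome count. robo1 and robo3, receptors for the midline repellent Slit, were both among them. robo1 had 0 counts in synaptosomes and 140, 327, 206 and 102 in input, 19.5 ± 12.4 CPM, and robo3 0 in synaptosomes and 134, 59, 145 and 21 in input. The immunoglobulin proteins side, side-II and side-VII, which guide motor axons or are related to the one that does, had 0 counts in synaptosomes and means of 7.39 to 14.5 CPM in input. Dscam1, a receptor with very many splice forms used in neurite self-recognition, kept another end. Its end 6 had 0 counts in synaptosomes and 127, 62, 187 and 35 in input, and its end 4 had 0, 15, 0 and 308 counts in synaptosomes and 74, 53, 139 and 63 in input.

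Genes of synaptic vesicles and active zones had 7 of 55 (12.7%), and 6 of the 7 kept another end. Syt1 had 0 counts at end 29 in synaptosomes and 53, 22, 107 and 17 in input, 3.95% ± 1.16 of the gene, while its main end 37 had 326, 58, 0 and 127 counts in synaptosomes and 1488, 677, 2143 and 293 in input. Vmat, which loads monoamines into vesicles, dlg1 and scrib, scaffolds of synapses and epithelia, Sap47 and Arc2 also had such an end. In Vmat, dlg1, scrib and Sap47 the end took 1.68% to 8.29% of the gene's input counts. Tbh, the enzyme that makes octopamine, was the gene without any synaptosome count, with 28, 55, 30 and 24 counts in input. For 5 of these 7 genes it was thus an end with under 10% of the gene's input counts that had 0 counts in synaptosomes.

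Muscle genes had 4 of 28 (14.3%), and all 4 kept an abundant other end. Tm1 and Tm2, the tropomyosins, sls, the fly titin, and Zasp52, a Z-disc protein, had input shares of 1.16% to 12.5% at the end seen only in input. In sls, end 4 had 0 counts in synaptosomes and 97, 103, 110 and 187 in input, and end 10 had 168, 74, 166 and 567 in synaptosomes and 548, 778, 1023 and 1119 in input. The 28 muscle genes summed to 3616 to 6979 CPM in synaptosomes, against 5964 to 16346 CPM in input, and 0 of them were without a synaptosome count. Photoreceptor genes had 5 of 44 (11.4%): dor, and, with another end kept, rdgC, CarT, ninaC and rdgA. The photoreceptor list summed to 27034 to 117314 CPM in synaptosomes, against 86280 to 100910 CPM in input. The part of either cell type in the ends seen only in input was not tested.

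Glial genes (0 of 22), haemocyte and immune genes (0 of 37) and cuticle genes (0 of 15) had no end seen only in input. Glial genes summed to 3258 to 4477 CPM in synaptosomes, against 3067 to 4164 CPM in input, with 2 of 25 genes at 0 in synaptosomes. The haemocyte list summed to 3807 to 8981 CPM in synaptosomes, against 4769 to 6617 CPM in input, and the cuticle list to 4817 to 23125 CPM in synaptosomes and 3396 to 4238 CPM in input. Chemosensory genes had 1 of 21 and fat body genes 1 of 18, the end of nur. Germline genes had 2 of 10, vas and dhd.

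Among nuclear functions, DNA replication, repair and cell cycle genes had 7 of 41 (17.1%). They included RnrL, the large subunit of ribonucleotide reductase, with 0 counts in synaptosomes and 21, 61, 225 and 232 in input, and lok, the fly Chk2, at 2 ends. Transcription and chromatin regulators had 8 of 73 (11.0%). Splicing genes had 7 of 71 (9.86%), nuclear pore genes 4 of 33 (12.1%), circadian clock genes 2 of 22 (9.09%) and ubiquitin genes 4 of 46 (8.70%). Kinases and GTPase regulators had 6 of 73 (8.22%), ribosomal and translation genes 4 of 51 (7.84%) and motors and cytoskeleton 4 of 55 (7.27%). Neuropeptides had 2 of 29 (6.90%) and ion channels 2 of 39 (5.13%). The lists were not complete. SLO2, Nuak and CLIP-190, described above, were not counted among the ion channels, kinases and cytoskeleton genes.

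**Figure D5:**
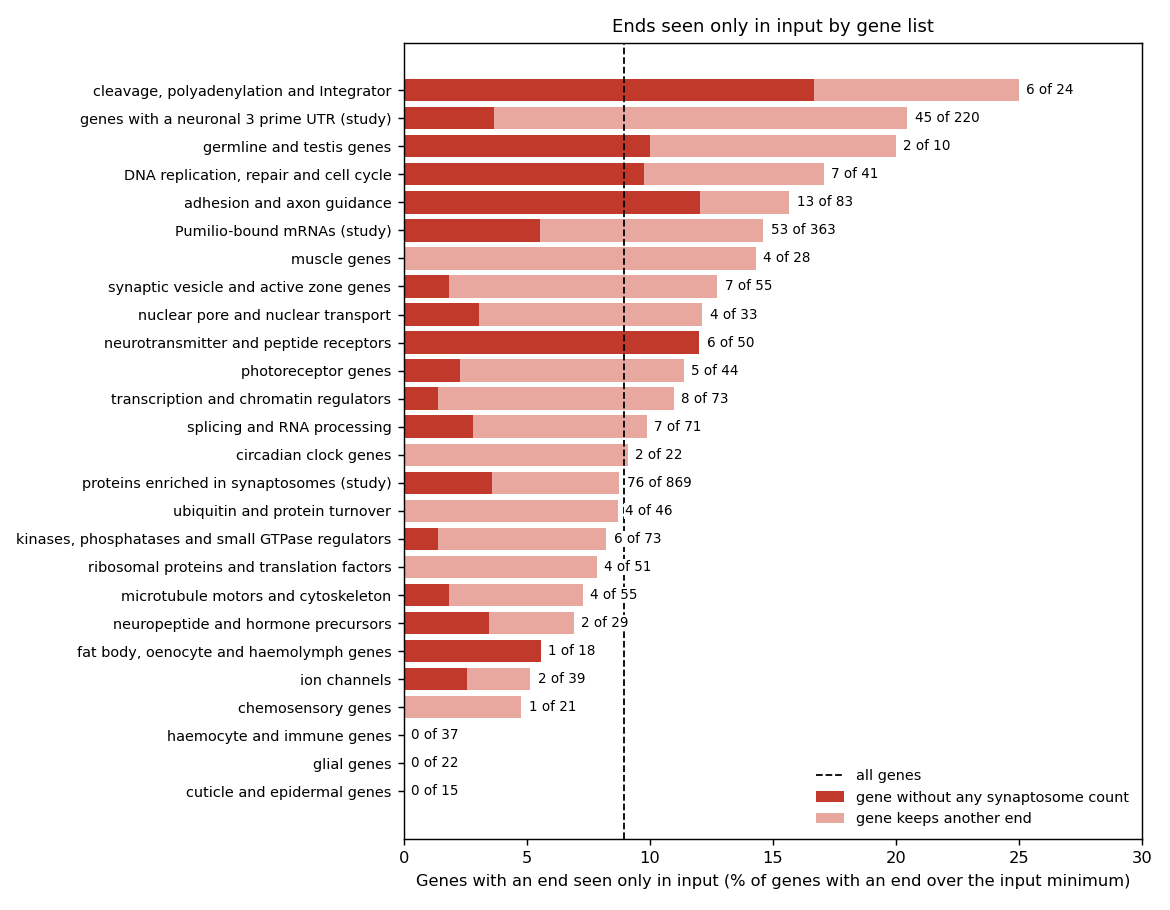
Genes with an end seen only in input as a percentage of the genes with an end over the input minimum (x axis), by gene list. Dark bars are genes without any synaptosome count and light bars genes that kept another end, the numbers are genes of genes, and the dashed line is the 8.93% of all genes, with 6 of 24 genes of 3′-end formation at the top and 0 of 22 glial genes among the last.

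Most genes had 1 such end, and 24 genes had 2 or more. lola, which codes for a family of zinc-finger transcription factors in axon guidance, had 4 of them among 18 ends. Ends 18, 34, 113 and 119 of lola had 0 counts in synaptosomes and 485, 261, 304 and 266 counts summed over the input libraries, together 35.1% of the gene. End 15 of lola had 333 counts in synaptosomes, all of them in synaptosome old, against 453 in input. Ends 69, 24 and 92 of lola kept 190, 188 and 82 counts in synaptosomes, against 192, 484 and 633 in input. mod(mdg4), another BTB-domain chromatin gene with many transcript forms, had 2. In Hk, the beta subunit of the Shaker potassium channel, and in Tk, the precursor of the tachykinin peptides, both ends of the gene were at 0. Hk had 340 and 246 counts over the input libraries at its ends, and Tk 220 and 307.

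Lists of the study were compared in the same way. Genes with a neuron-specific 3′ UTR extension had an end seen only in input in 45 of 220 (20.5%), and 37 of the 45 kept another end. They included Khc-73, BicD, Bacc, B4, DIP1, cic and Hers. Hers, a repressor of histone genes, had 0 counts at end 10 in synaptosomes and 248, 50, 240 and 72 in input, and its end 5 kept 178, 46, 30 and 16 counts in synaptosomes and had 120, 74, 177 and 29 in input. mRNAs bound by the translational repressor Pumilio had 53 of 363 (14.6%), SLO2, Khc-73, dpr19 and Dop1R1 among them. Genes of proteins enriched in synaptosomes had 76 of 869 (8.75%), beside 8.93% of all genes. Among ends of 3 to 10 CPM in input, 25.0% of 148 ends of genes with a neuron-specific 3′ UTR were seen only in input. This share was 22.9% of 166 ends for genes of Pumilio-bound mRNAs and 19.0% of 248 for genes of synaptosome proteins. It was 18.3% of all 2515 ends in that range. These are shares of ends, whereas those over all levels are shares of genes. A gene with more ends has more chances to hold such an end, and the shares of genes were not adjusted for this. Which end of a gene carries the neuron-specific extension was not determined, so any end of a listed gene is counted.

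Some genes of synaptosome proteins were without any count in the synaptosome libraries. Rab26, a GTPase of synaptic vesicles, had 0 counts in synaptosomes and 205, 155, 266 and 76 in input, 17.3 ± 8.10 CPM. SCAR, which activates actin branching, had 0 in synaptosomes and 164, 114, 350 and 238 in input. Tomosyn, which holds back vesicle release, kept 97, 0, 0 and 239 counts in synaptosomes at end 1, and had 0 counts there at end 3, where input had 99, 136, 238 and 104.

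The genes were also compared by structure in release 6 of the genome. Genes that kept another end, which have at least 2 ends by the rule, were longer, with a median of 3.92 kb, and their longest annotated 3′ UTR had a median of 637.5 bases. Genes without any synaptosome count had medians of 3.22 kb and 328 bases, and all genes with an end over the input minimum 2.92 kb and 310 bases. Abundance went with this too. Genes with an end seen only in input at 3 to 10 CPM had a median 3′ UTR of 515 bases, against 471 bases for all genes with an end in that range. Protein-coding genes made up 669 of 676 annotated genes, and 18.2% lay on the X, against 16.2% of all genes over the minimum. At 3 to 10 CPM, 17.1% of genes with an end seen only in input lay on the X, against 18.2% of all genes with an end in that range. Of the 45 ends that could be placed, 41 (91.1%) lay within 50 bases of the annotated gene end, against 754 of 823 (91.6%) of the ends over the minimum placed in the same way. Where the ends lay in genes with several ends was not analysed here, because the count table numbers the ends of a gene without coordinates.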

How the data were processed

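Per the study's methods and the labels, the authors used fastp for trimming and STAR 2.6.1b for mapping to the dm6 build, removed likely internal priming, clustered the peaks and kept clusters near known 3′ ends. The deposited counts were whole, not normalized reads per end and per gene, and the deposited list of known ends gave coordinates (1-based here). The deposited tables of the authors' DESeq2 comparison hold fold changes and p-values and were not used. Columns named old were assigned by the prefix they share with a group's titles. Ends, the rule and gene lists were chosen with earlier results of these data known. The lists of the study rest on its other measurements and on earlier work.

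All 11062 ends passing filterByExpr entered the test of edgeR 4.0.16, run in R 4.3.3 (TMM, robust quasi-likelihood, no covariates, adjusted p under 0.05), checked on simulated data. DESeq2 1.42.0, other scalings, filters, count minimums, a replicate block and left-out libraries were alternatives. Named were the 10 most abundant ends of each kind, the 10 with the largest expected counts, up to 4 per list and those at the edge of the rule. Other ends of these genes, Rassf and its like, lola, markers and the study-list examples were named after their values were seen. Of 1360 symbols on the lists, 1267 were matched. Gene positions came from an Ensembl annotation of release 6.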

Additional observations from a re-analysis of the deposited data

Results flagged for a closer look

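Among the 27 ends chosen by abundance or expected count, 3 had an input library far from the other 3. Synaptosome libraries were at 0 in each. The end of nur had 223 CPM in input 2, end 2 of CG6729 had 44.2 CPM in input old, above the others, and end 10 of Khc-73 had 6.80 CPM in input old, below the others. The gap to the nearest library, as a fraction of the whole range, was 0.891, 0.837 and 0.838, above Dixon's critical value for 4 libraries. Chance gives such a value in about 1 of 20 groups of 4.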

How the results depend on the processing

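The number of ends depended on depth. With a minimum of 5 counts in input it was 909, with 20 it was 434 (230 keeping another end, 204 not) and with 50 it was 134 (69 and 65). Leaving out 1 library gave 759 to 1463 ends, 440 to 725 with another end and 319 to 738 without, the highest without synaptosome old (1463, 725 and 738), and without synaptosome 1 there were 474 of the last kind. Without both libraries named old there were 1675 (840 and 835).

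Calls across all ends depended more on the processing. Leaving out 1 library gave 1 to 1956 lower calls, 0 to 168 higher calls and 0 to 670 calls among ends seen only in input. Without both libraries named old there were 1575, 145 and 550. Without a filter there were 110, 51 and 27, and among ends averaging 100 or more counts 62, 70 and 21. DESeq2 gave 1274, 226 and 683. Median-of-ratios scaling gave 125 higher calls and moved the median log2 fold change of all ends to -0.32, against -0.48 with TMM and -0.41 with totals alone. By edgeR at unadjusted p under 0.05, 1306 ends were lower and 288 higher, 563 of them ends seen only in input. The cause of these changes was not tested.

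Whether same-numbered libraries were paired could not be settled. Their deviations correlated at -0.00, 0.03 and -0.02, and those of the libraries named old at 0.25, the highest of all pairs. Correlations near 0 cannot show that libraries were unpaired, and the methods take the input from the homogenate that is then fractionated. With a replicate block on numbers 1 to 3, fitted without the libraries named old, there were 248 lower and 93 higher calls and 2 calls among ends seen only in input, against 1575, 145 and 550 in those libraries without the block. With all libraries and old as the other level of the block, an alternative chosen after seeing the data, there were 298, 80 and 26.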
